A study of Schizosaccharomyces pombe with 6 samples.

Results

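The abundant non-coding RNAs of fission yeast described here are the features of the deposited table whose identifier starts with SPNCRNA. and whose mean level over all 6 libraries was at least 50 FPKM (fragments scaled by gene length and by library size). Members were selected on this mean level, so their abundance is a description and not a result. There were 106 members, which is 6.897% of the 1537 SPNCRNA. features in a table of 7016 features. RNA came from asynchronous Schizosaccharomyces pombe cultures in biological triplicate. The estradiol cultures received 1 µM estradiol for 3 h at 30 °C and the control cultures received ethanol vehicle. The strain, its estradiol-responsive activator and its reporter are not described in the labels. In these bulk cultures, fewer cells of a kind and less RNA per cell cannot be told apart.

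Long non-coding RNAs are transcripts that are not translated into a known protein. Fission yeast makes many of them antisense to coding genes or between genes, and the nuclear exosome is known for removing many of them. The identifier series also takes in RNAs of fixed structure and function, such as those of the signal recognition particle, RNase P, RNase MRP and telomerase, and small nucleolar RNAs (snoRNAs), which guide modification or processing of ribosomal RNA. The TruSeq kit used keeps no strand, so fragments of overlapping genes on opposite strands cannot be told apart.

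The label of long non-coding RNA did not hold for every member. In the ASM294v3 reference annotation, 4 members were snoRNA genes (SPNCRNA.906, SPNCRNA.1436, SPNCRNA.445 and SPNCRNA.1483) and 2 were small non-coding RNAs (SPNCRNA.120 and SPNCRNA.475). A further 12 carried the remark that they may be alternative untranslated regions. The reference named srp7 (SPNCRNA.98), mrp1 (SPNCRNA.82), ter1 (SPNCRNA.214) and rrk1 (SPNCRNA.128), the RNAs of the signal recognition particle, RNase MRP, telomerase and RNase P. By place, 80 members lay antisense to a coding gene, 15 overlapped no other gene, 3 overlapped only another RNA gene and 2 lay on the strand of a coding gene. Long non-coding RNA genes of the reference that have no feature in the table were not considered in these places. The other 6 were not placed: 5 had no match in the reference and SPNCRNA.727 matched 2 genes by synonym, mrp1 and snoZ16. Antisense members had a median length of 1247 bases, and those that overlapped no gene had a median of 326.

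The sequences of 3 members whose level was higher with estradiol are shown because 2 of them are snoRNAs that the table also holds under a second identifier. They were read from the ASM294v3 reference (RefSeq) on the strand of the gene. The first is snR95 at chrII:1468185-1468406 (minus strand, whole), the second the last 300 of the 326 bases of snR30 at chrI:3394901-3395200 (plus strand), and the third SPNCRNA.942 at chrI:3851024-3851310 (plus strand, whole). Capitals mark the ACA that stands 3 bases before the end, the feature that gives box H/ACA snoRNAs their name.
snR95 (SPNCRNA.1436): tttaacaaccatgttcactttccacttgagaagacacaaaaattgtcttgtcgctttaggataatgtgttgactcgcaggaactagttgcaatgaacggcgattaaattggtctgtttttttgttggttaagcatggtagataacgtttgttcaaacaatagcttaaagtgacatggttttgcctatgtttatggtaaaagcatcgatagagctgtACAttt
snR30 (SPNCRNA.906): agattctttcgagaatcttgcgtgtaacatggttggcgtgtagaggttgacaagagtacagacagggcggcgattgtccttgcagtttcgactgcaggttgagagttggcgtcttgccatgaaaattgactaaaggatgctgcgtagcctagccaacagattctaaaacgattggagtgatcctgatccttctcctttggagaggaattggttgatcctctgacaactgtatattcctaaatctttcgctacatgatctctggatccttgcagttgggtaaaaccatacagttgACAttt
SPNCRNA.942: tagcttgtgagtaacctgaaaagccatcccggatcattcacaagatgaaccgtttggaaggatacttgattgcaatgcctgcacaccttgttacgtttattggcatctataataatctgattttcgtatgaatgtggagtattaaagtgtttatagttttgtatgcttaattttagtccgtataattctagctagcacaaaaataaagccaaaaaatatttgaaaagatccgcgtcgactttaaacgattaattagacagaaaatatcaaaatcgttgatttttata
An ACA at this position stood in 3 of 100 placed members (3.0%), in 2.23% of 1437 placed SPNCRNA. features and in 16.7% of 66 snoRNA genes. The third such member was SPNCRNA.1094, and SPNCRNA.942 had none.

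The treatment was visible in GFP, the fluorescent protein transcript in the table, which averaged 714 ± 141 FPKM with estradiol and 147 ± 15.3 FPKM in control (SD, n = 3 each). The table holds no counts, so absolute depth is unknown. The spacing of low values gave relative depths of 0.688 to 1.15 in estradiol libraries and 0.895 to 1.3 in control libraries. Each library had 462 to 599 features at 0. Libraries are named by the column numbers 0 to 2 of each group. Of 6 markers of growing cells, none was called, and they summed to 30460 to 40830 FPKM in estradiol libraries and 31890 to 38630 FPKM in control libraries. Log2 changes were 0.18 for tdh1 (glycolysis), -0.17 for act1 (actin), -0.22 for eno101 (enolase), -0.33 for tef101 (translation elongation) and -0.09 for cdc2 (cell cycle kinase), and adh1 (alcohol dehydrogenase) was listed near 0 in both groups and not tested. Of 6 genes of sporulating cells, 2 were called higher and none lower. These were mei4, a transcription factor of meiosis, at 12.6 FPKM with estradiol and 7.07 FPKM in control, and the spore wall gene isp3, at 41.3 FPKM with estradiol and 11.96 FPKM in control. The 6 genes summed to 104 to 125 FPKM in estradiol libraries and 71.7 to 76.7 FPKM in control libraries, with meu10 near 0 in both, and their part in the changes below was not tested.

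Most members differed little between the groups. With limma on log2(FPKM + 1), all 106 members were tested, 11 were called higher and 7 lower at an adjusted p under 0.05, and 88 were not called. The shares among all 6166 features tested were 4.07% called higher and 3.91% called lower. The mean that chose the members takes in both groups, and 4 called members passed it through 1 group alone. SPNCRNA.1436, SPNCRNA.1696 and SPNCRNA.1511 averaged under 50 FPKM in control and SPNCRNA.841 under 50 FPKM with estradiol, so these had to differ. Of the 102 members with at least 50 FPKM in each group, a rule added after the data were seen, 8 were called higher and 6 lower. The median log2 change of the members was 0.01, against 0.02 over all features tested, and 67 members lay within 0.2 of 0. The 3 estradiol values were all above the 3 control values in 22 members and all below in 14, where the shares over all features were 17.1% and 14%. At an unadjusted p under 0.05, 23 members were higher and 11 lower, beside shares over all features of 14.5% higher and 11.5% lower. With the column number as a replicate block, 16 members were called higher and 12 lower. Over all 6166 features, that fit called 506 higher and 524 lower, against 251 and 241 without the block. The member calls gained were SPNCRNA.242, SPNCRNA.1354, SPNCRNA.1448, SPNCRNA.1483 and SPNCRNA.1600 (higher) and SPNCRNA.134, SPNCRNA.843, SPNCRNA.875, SPNCRNA.1648 and prl25 (lower). Leaving out control libraries 0 or 1 or estradiol libraries 1 or 2 cut the member calls to 4 or 5 higher and 2 lower. Over all features, these fits called 42 to 88 higher and 32 to 76 lower.

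Members were also described by place. Overlapping no gene means that the reference has no other gene there, leaving aside long non-coding RNA genes without a feature in the table. Of these 15 members, limma called 9 higher and none lower, beside 4.07% higher and 3.91% lower over all features tested. Their median log2 change was 0.67. At an unadjusted p under 0.05, 11 of the 15 were higher and 0 lower, beside 14.5% and 11.5% of all features. The rule fixed part of this, since SPNCRNA.1436 and SPNCRNA.1696 passed 50 FPKM through estradiol alone. The 13 with at least 50 FPKM in each group held 7 higher calls and had a median of 0.63. SPNCRNA.906, SPNCRNA.1436 and SPNCRNA.1696 also share their gene with a second feature of the table, and without these 3 the class held 6 higher calls of 12, with a median of 0.52. The 12 still held mrp1 (SPNCRNA.82), not called, a gene that SPNCRNA.727 also matched. Of the 80 antisense members, 2 were called higher and 7 lower, with a median of -0.02. Among placed members shorter than 400 bases, 6 of 13 were called higher and none lower (8 and 0 at an unadjusted p under 0.05). Of these 6, SPNCRNA.1436 and SPNCRNA.1511 passed 50 FPKM through estradiol alone. All of the 6 but SPNCRNA.1511 are also among the 15 that overlap no gene, so the short class largely repeats those calls. Leaving out 1 library left between 4 and 8 higher calls among the 15, with 4 without control library 0, control library 1 or estradiol library 1 and 5 without estradiol library 2. The other 1431 SPNCRNA. features, of which 1064 were tested, had a median log2 change of 0.20, with 76 called higher and 10 lower. No test between these classes was made.

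**Figure D1:**
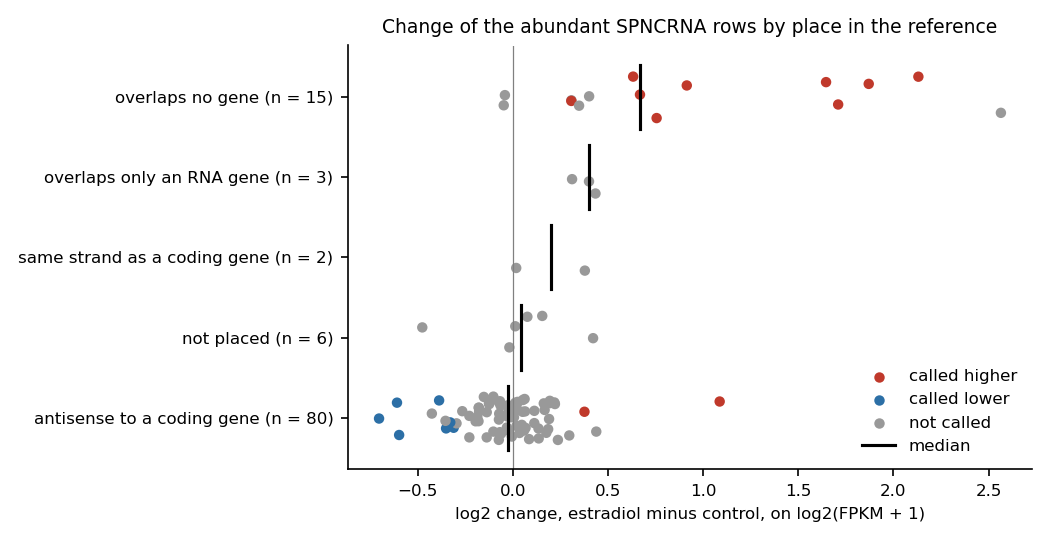
Log2 change (estradiol minus control, x axis) of each of the 106 members, grouped by place in the reference (y axis, random vertical spread); each point is a member and the black bar is the median. The 15 members that overlap no gene have a median of 0.67, and the 80 antisense members one of -0.02; the point at 2.57 is SPNCRNA.120, which was listed at 0 in a control library.

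Among members with a reference name, 3 changed by more than 1 on the log2 scale, and each of them stood in the table a second time. The snoRNA gene snR95 (SPNCRNA.1436) had 137, 155 and 157 FPKM in estradiol libraries 0 to 2, against 31.8, 32.7 and 35.8 FPKM in control libraries 0 to 2. The groups were far apart, and the log2 change was 2.13 (standard error, SE, 0.08, limma adjusted p 1.4e-04). SPNCRNA.1436 passed 50 FPKM through estradiol alone, so it had to differ between the groups. The reference gives the same gene the identifier SPSNORNA.47, a second feature of the table. SPSNORNA.47 had 869, 989 and 674 FPKM with estradiol and 826, 713 and 643 FPKM in control, so its groups overlapped. The sum of both features had 1007, 1144 and 831 FPKM with estradiol and 858, 745 and 679 FPKM in control, a log2 ratio of means of 0.39 with an exact permutation p of 0.2 (2-sided). How fragments were divided between the 2 features was not tested.

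The snoRNA snR30 (SPNCRNA.906), also called U17, takes part in processing of the 18S ribosomal RNA. It had 458, 711 and 772 FPKM with estradiol and 188, 209 and 181 FPKM in control, a log2 change of 1.71 (SE 0.19, limma adjusted p 0.0067). Its second feature, SPSNORNA.20, had 272 FPKM in estradiol library 0 and was near 0 in estradiol libraries 1 and 2, against 283, 231 and 227 FPKM in control. Where SPSNORNA.20 was near 0, SPNCRNA.906 was highest. The sums of both were 730, 711 and 772 FPKM with estradiol and 470, 440 and 408 FPKM in control, a log2 ratio of 0.75 with no overlap (exact permutation p 0.1, the smallest that 3 against 3 libraries allow).

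The transcript nam3 (SPNCRNA.1696) also had a second feature, SPNCRNA.532. SPNCRNA.1696 had 112, 83.2 and 77.9 FPKM with estradiol and 35.1, 25.1 and 24.9 FPKM in control, a log2 change of 1.65 (SE 0.18, limma adjusted p 0.0062). It too passed 50 FPKM through estradiol alone and had to differ. SPNCRNA.532 had 65.1, 46.2 and 35.7 FPKM with estradiol and 39.0, 40.4 and 27.4 FPKM in control, and its groups overlapped. The sum stayed apart, at 177, 129 and 114 FPKM with estradiol and 74.1, 65.5 and 52.3 FPKM in control (log2 ratio 1.13, exact permutation p 0.1).

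**Figure D2:**
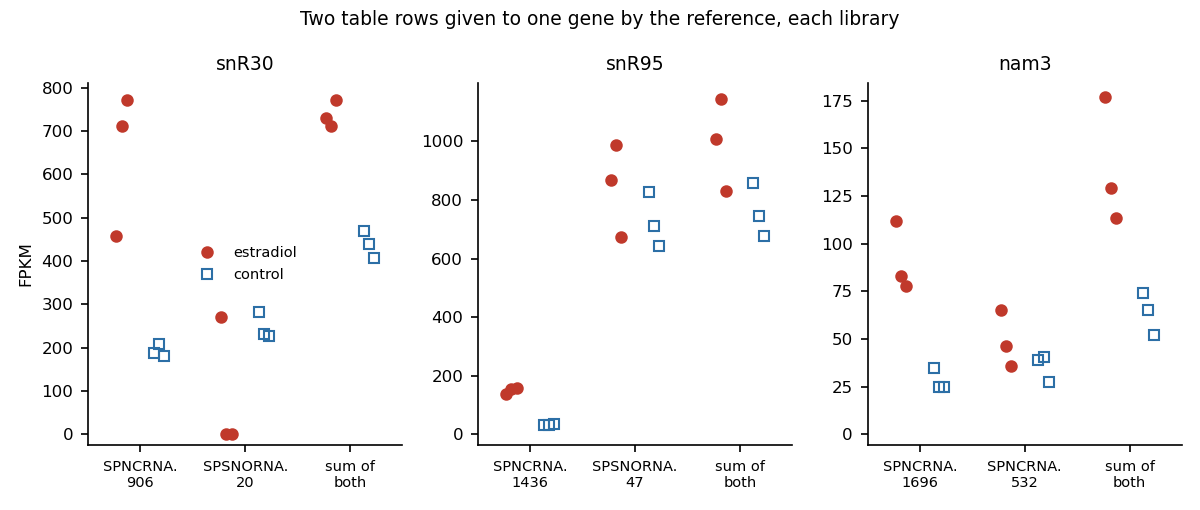
FPKM (y axis) of 2 table features that the reference gives to one gene, and of their sum, for snR30, snR95 and nam3; filled circles are the 3 estradiol libraries and open squares the 3 control libraries. For snR95 the sum overlaps between groups (831 with estradiol, 858 in control), while for snR30 and nam3 it does not.

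Other RNAs of known function had smaller log2 changes than SPNCRNA.1436, SPNCRNA.906 and SPNCRNA.1696 taken as single features. Set against the sum for snR95 (log2 ratio of means 0.39), snoR61 had the larger change. The snoRNA snoR61 (SPNCRNA.445) had 241, 294 and 301 FPKM with estradiol and 170, 180 and 173 FPKM in control, a log2 change of 0.67 (limma adjusted p 0.013). Telomerase RNA, ter1, which templates telomere repeats, had 191, 178 and 188 FPKM with estradiol and 143, 149 and 158 FPKM in control. Its groups did not overlap and its log2 change was 0.31 (SE 0.06, limma adjusted p 0.032). The signal recognition particle RNA srp7, which helps to send nascent proteins to the endoplasmic reticulum, had 3297, 2625 and 2758 FPKM with estradiol and 2219, 2269 and 2296 FPKM in control. It was not called, with a log2 change of 0.35 and a limma adjusted p of 0.086. The RNase MRP RNA mrp1 had 1569, 1667 and 1563 FPKM with estradiol and 1750, 1603 and 1587 FPKM in control (log2 change -0.04), and the RNase P RNA rrk1 a log2 change of -0.14, neither called. The call of ter1 was lost on leaving out any 1 library other than control 2 and with no intensity trend, and that of snoR61 on leaving out control 0, control 1 or estradiol 1. SPNCRNA.1483, annotated as a snoRNA precursor, had a log2 change of 0.43 and a limma adjusted p of 0.077, or 0.015 with the block. Of the 53 features with an SPSNORNA identifier, 27 were tested and none was called, beside 4.07% called higher and 3.91% lower over all features. Their log2 changes ran from -5.24 to 3.98, with a median of -0.0047.

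The unnamed members called higher were led by SPNCRNA.942. It had 164, 215 and 186 FPKM with estradiol and 50.2, 41.4 and 61.8 FPKM in control, a log2 change of 1.87 (SE 0.16, limma adjusted p 0.0031), and stayed called without any one library. SPNCRNA.1511, which overlaps the aminopeptidase gene ape2 over 163 bases on the other strand, had 68.2, 101 and 95.7 FPKM with estradiol and 42.1, 43.5 and 36.1 FPKM in control (log2 change 1.09, limma adjusted p 0.014). It passed 50 FPKM through estradiol alone, so it had to differ. The gene ape2 itself had 121, 102 and 94.9 FPKM with estradiol and 124, 119 and 110 FPKM in control, with overlapping groups and a log2 change of -0.15, not called. SPNCRNA.808 had 174, 285 and 320 FPKM with estradiol and 139, 136 and 124 FPKM in control (log2 change 0.91, limma adjusted p 0.049). Its call was lost without control 0, 1 or 2 or estradiol 1 or 2, and also with a pseudocount of 5, no filter, quantile normalization, equal medians or no intensity trend. The small RNA SPNCRNA.475, which lies 142 bases from a 5S ribosomal RNA gene, had 202, 179 and 223 FPKM with estradiol and 120, 104 and 134 FPKM in control (log2 change 0.76, limma adjusted p 0.016, lost without control 0 or 1 or estradiol 1 or 2). SPNCRNA.1511 lost its call without the same 4 libraries. SPNCRNA.847 was antisense to nog2, a GTPase of ribosome export. It had 125, 142 and 132 FPKM with estradiol and 92.5, 106 and 109 FPKM in control (log2 change 0.38, limma adjusted p 0.041), a call lost on leaving out any 1 library other than estradiol 0 and with no filter, quantile normalization, equal medians or no intensity trend.

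The bases before the start of 6 of the members called higher are shown because the promoter windows of members were searched for short motifs; the first 4 hold a match and the last 2 do not. Each line holds the 100 bases before the annotated start, 5′ to 3′ on the strand of the gene, from ASM294v3. Capitals mark TATAAA and CAGTCACA, or their reverse complements, TTTATA and TGTGACTG.
snR30 (SPNCRNA.906), chrI:3394775-3394874, plus strand: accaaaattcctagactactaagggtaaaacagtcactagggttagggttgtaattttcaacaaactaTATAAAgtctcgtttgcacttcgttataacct
SPNCRNA.942, chrI:3850924-3851023, plus strand: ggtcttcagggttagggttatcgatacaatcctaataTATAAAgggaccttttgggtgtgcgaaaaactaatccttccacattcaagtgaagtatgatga
SPNCRNA.808, chrI:2265839-2265938, minus strand: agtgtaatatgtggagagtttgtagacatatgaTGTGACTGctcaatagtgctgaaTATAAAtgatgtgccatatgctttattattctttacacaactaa
snoR61 (SPNCRNA.445), chrII:3874907-3875006, minus strand: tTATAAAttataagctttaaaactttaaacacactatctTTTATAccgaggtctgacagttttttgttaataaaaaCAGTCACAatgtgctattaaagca
snR95 (SPNCRNA.1436), chrII:1468407-1468506, minus strand: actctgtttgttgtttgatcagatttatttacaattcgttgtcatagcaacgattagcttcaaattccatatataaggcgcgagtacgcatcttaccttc
SPNCRNA.1511, chrII:2416743-2416842, minus strand: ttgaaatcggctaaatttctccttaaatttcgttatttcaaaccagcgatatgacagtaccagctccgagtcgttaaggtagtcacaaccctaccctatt
In windows of 250 bases before to 50 after the start, TATAAA on either strand stood in 41 of 100 members, in 7 of 11 called higher and in 3 of 7 called lower, against 45.3% of 12605 reference genes. CAGTCACA, added after the windows were seen, stood in 4 of 100 members and in 1.65% of all genes, and 2 of the 4 were called higher (SPNCRNA.808 and snoR61). The Zif268 site GCGTGGGCG stood in no member and in no gene's window. ATGACGT stood in 1 member (1.14% of genes), CACGTG in 1 (1.54%) and TGACGTCA in none (0.246%). A match is a description of these letters and not a bound site.

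**Figure D3:**
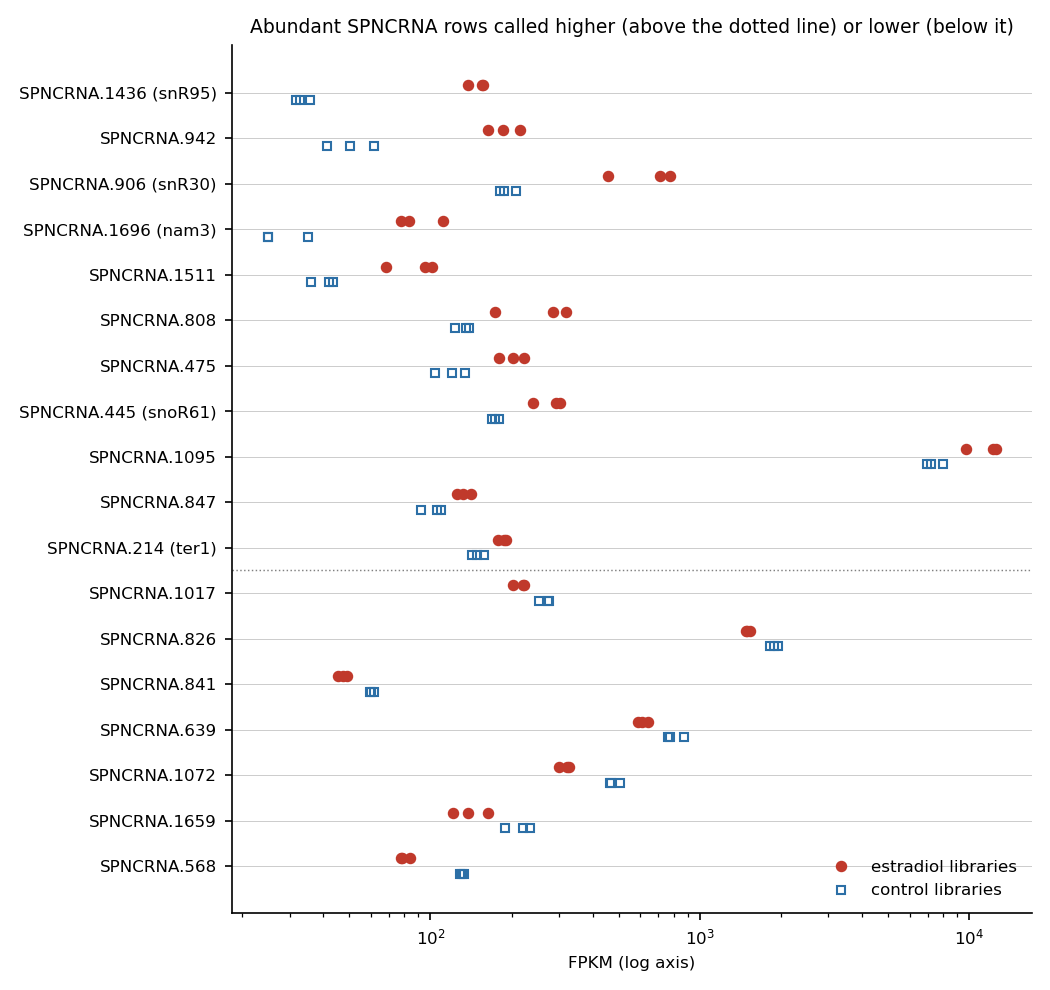
FPKM (log axis) of the 11 members called higher and the 7 called lower, with gene names in brackets; filled circles are estradiol libraries and open squares control libraries, one point per library. No called member has overlapping groups, and the spread is widest in SPNCRNA.906 and SPNCRNA.808 among estradiol libraries.

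The 2 most abundant members were adjacent. SPNCRNA.1095 and SPNCRNA.1094 lie 29 bases apart on one strand, and a copy of the 18S ribosomal RNA gene follows SPNCRNA.1094 after 527 bases. SPNCRNA.1095 had 9698, 12258 and 12523 FPKM with estradiol and 7192, 6944 and 7994 FPKM in control (log2 change 0.63, limma adjusted p 0.035), a call lost on leaving out any 1 library other than estradiol 0 and with no filter or quantile normalization. SPNCRNA.1094 had 11526, 5927 and 13845 FPKM with estradiol and 7536, 7363 and 7395 FPKM in control. Its estradiol values lay on both sides of the control values, with a log2 change of 0.40 and a limma adjusted p of 0.45. Ribosomal RNA was depleted before sequencing, and the summed level of ribosomal RNA features was 33.4, 148 and 116 FPKM in estradiol libraries and 29.2, 175 and 167 FPKM in control libraries. Its part in these values was not tested. The members held 6.5%, 6.52% and 7.24% of the summed FPKM with estradiol and 5.12%, 5.07% and 5.65% in control (exact permutation p 0.1). Without SPNCRNA.1094 and SPNCRNA.1095 the shares were 3.84%, 4.15% and 3.9% with estradiol and 3.44%, 3.39% and 3.8% in control.

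**Figure D4:**
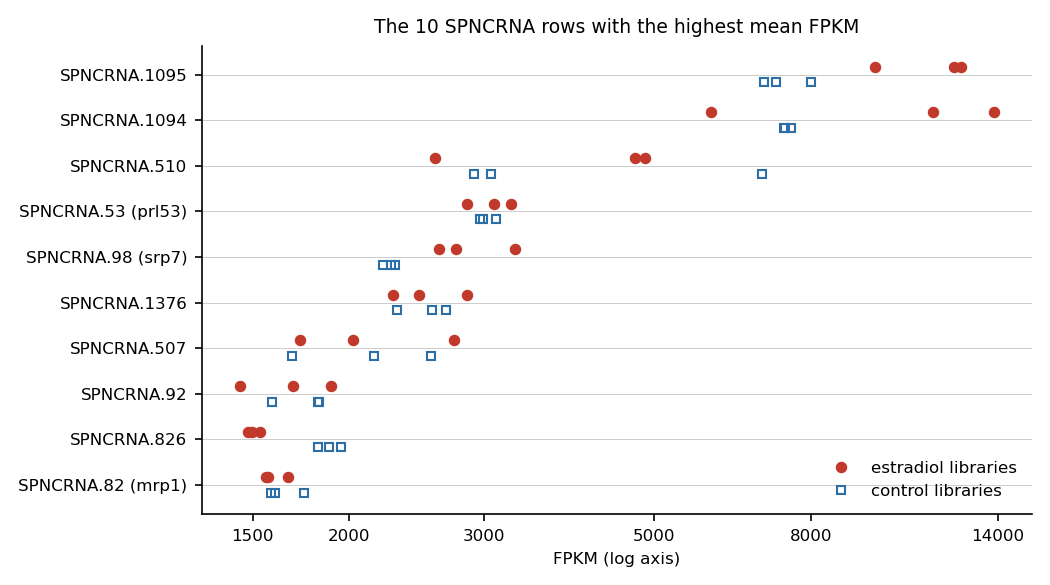
FPKM (log axis) of the 10 members with the highest mean, filled circles for estradiol libraries and open squares for control libraries. SPNCRNA.1095 lies above its control values in each estradiol library, SPNCRNA.826 below, and SPNCRNA.1094 spreads from 5927 to 13845 with estradiol.

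The members called lower all lay antisense to a coding gene. SPNCRNA.568 had 84.1, 78.7 and 77.7 FPKM with estradiol and 133, 129 and 131 FPKM in control. Its log2 change was -0.70 (SE 0.06, limma adjusted p 0.0024), and the call held without any one library. It lies within ade7, a gene of purine synthesis, whose own feature had 4.22, 6.89 and 4.82 FPKM with estradiol and 9.86, 7.89 and 11.3 FPKM in control. SPNCRNA.1072 had 327, 301 and 322 FPKM with estradiol and 506, 470 and 463 FPKM in control (log2 change -0.60, limma adjusted p 0.0060). Its partner SPAP8A3.07c, an aldolase of aromatic amino acid synthesis, had 114, 106 and 122 FPKM with estradiol and 183, 164 and 177 FPKM in control. SPNCRNA.1659 had 163, 138 and 121 FPKM with estradiol and 234, 221 and 188 FPKM in control (log2 change -0.61, limma adjusted p 0.034). Its partner arg4, a carbamoyl-phosphate synthase of arginine synthesis, had 75.2, 66.5 and 58.3 FPKM with estradiol and 121, 108 and 92.0 FPKM in control.

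The remaining 4 fell by less. SPNCRNA.639 lies within mcp60, a mitochondrial chaperonin gene, and had 642, 589 and 609 FPKM with estradiol and 875, 760 and 774 FPKM in control (log2 change -0.39, limma adjusted p 0.030). SPNCRNA.841, antisense to ptf1, had 49.2, 45.3 and 47.5 FPKM with estradiol and 60.2, 61.8 and 59.7 FPKM in control (log2 change -0.35, limma adjusted p 0.019). It passed 50 FPKM through control alone, so it had to differ. SPNCRNA.826, antisense to cpc2, the RACK1 protein of the small ribosomal subunit, had 1481, 1499 and 1532 FPKM with estradiol and 1956, 1887 and 1825 FPKM in control (log2 change -0.33, limma adjusted p 0.029). In each of these 3 the gap between the groups was wider than the range within either. SPNCRNA.1017 had 202, 221 and 223 FPKM with estradiol and 253, 272 and 276 FPKM in control (log2 change -0.31, limma adjusted p 0.036). It lies within erf1, the translation release factor, which had 0.366, 0.820 and 1.57 FPKM with estradiol and 0.503, 0.873 and 1.41 FPKM in control. Calls were lost for SPNCRNA.1017 on leaving out any of the 6 libraries, for SPNCRNA.639 any other than estradiol 0, for SPNCRNA.826 any other than control 2, and for SPNCRNA.841 and SPNCRNA.1659 without control 0 or 1 or estradiol 1 or 2. With quantile normalization the calls of SPNCRNA.1017, SPNCRNA.1659, SPNCRNA.639 and SPNCRNA.826 were lost, with no filter those of SPNCRNA.1017, SPNCRNA.1659 and SPNCRNA.639, and with no intensity trend those of SPNCRNA.1017 and SPNCRNA.1659.

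The change of an antisense member went with that of its coding partner. Over 74 pairs in which the partner was tested, Pearson's r of the log2 changes was 0.66 and Spearman's rho 0.74, the signs were equal in 58, and 64 pairs differed by less than 0.2. Each pair shares libraries and bases without strand, so the pairs are not independent and no p is given. All 6 tested partners of members called lower had a negative log2 change, and 3 of them were called lower (arg4, SPAP8A3.07c and mcp60). Limma called no partner higher (7 of 74 were higher and 14 lower at an unadjusted p under 0.05, beside 14.5% and 11.5% of all features). The member had the higher mean FPKM in 64 of 80 pairs, with a median of 84.0 FPKM over members, which were chosen for level, and 34.0 FPKM over partners, against 39.4 FPKM over all coding features.

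In 6 of the 80 pairs the coding partner had a mean under 1 FPKM (7.5%, against 3.97% of 5108 coding features). Besides erf1, qrs1 and iws1 were listed at 0 in all libraries beside SPNCRNA.576 and SPNCRNA.1508, which averaged 136 and 61.8 FPKM over the 6 libraries. The others were ceo5, ure2 and rex3, beside SPNCRNA.1033, SPNCRNA.1041 and SPNCRNA.1023. Of the 80 antisense members, 77 had most of their bases inside the partner and 33 lay fully inside it. How fragments were divided between the overlapping features was not tested for any of the 80 pairs. The level and change of either feature of a pair are therefore uncertain, also where both had fragments.

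**Figure D5:**
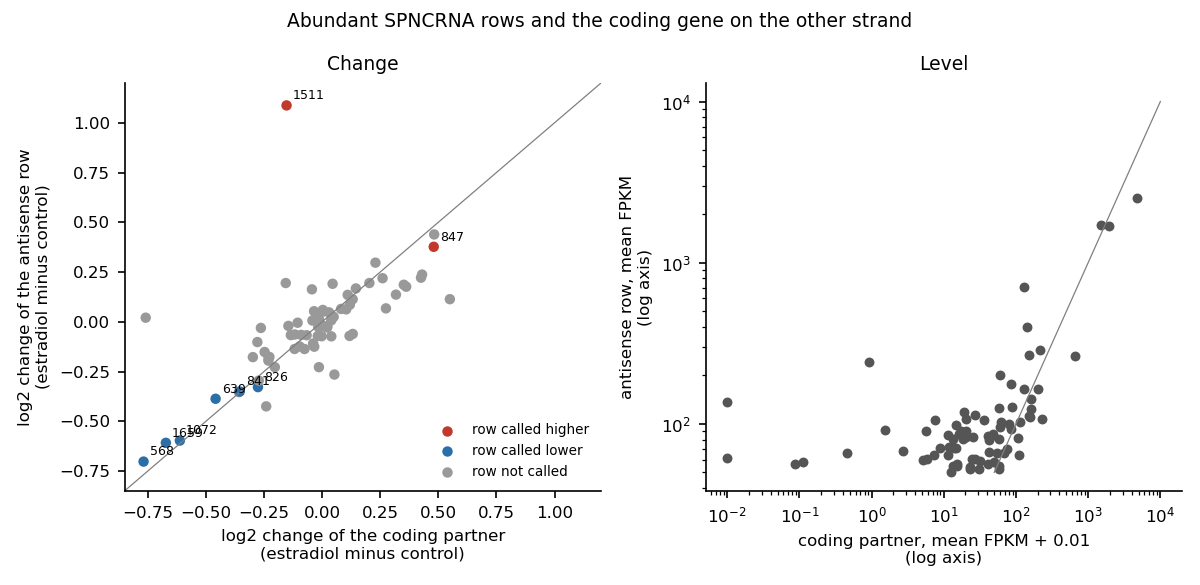
Left, log2 change (estradiol minus control) of each antisense member (y axis) against that of its coding partner (x axis), 74 pairs, with the line of equality; numbers are the ends of the identifiers of called members. Right, mean FPKM of member and partner over 6 libraries on log axes, 80 pairs, with 0.01 added to the partner; SPNCRNA.1511 stands off the left line, and 64 members lie above the equality line on the right.

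Members differed in how well their libraries matched. The SD of log2(FPKM + 1) between libraries of a group had a median of 0.116 with estradiol and 0.102 in control, and 74 members stayed under 0.2 in both groups. It passed 0.5 in 5 members. SPNCRNA.514 was listed at 960, 409 and 0 FPKM with estradiol and 484, 337 and 0 FPKM in control. SPNCRNA.120, described in the reference as expressed in stationary phase and quiescence, had 201, 247 and 226 FPKM with estradiol and 337, 161 and 0 FPKM in control. The other 3 were SPNCRNA.99, SPNCRNA.510 and SPNCRNA.1094. SPNCRNA.510 had 2591, 4717 and 4857 FPKM with estradiol and 3068, 2910 and 6898 FPKM in control, with overlapping groups. The remaining abundant members overlapped too: prl53 averaged 3066 ± 201 and 3023 ± 79.8 FPKM in estradiol and control cultures (SD, n = 3 each), SPNCRNA.1376 2538 ± 289 and 2520 ± 186, SPNCRNA.507 2167 ± 524 and 2137 ± 437, and SPNCRNA.92 1677 ± 227 and 1749 ± 138. The named members prl3, prl25 and SPNCRNA.727 had log2 changes of 0.38, -0.18 and 0.16 and were not called without a block; prl25 was called with it.

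At the threshold, the last members were SPNCRNA.719, SPNCRNA.616 and SPNCRNA.1498, with means of 50.3, 52.5 and 52.8 FPKM. The first features outside were SPNCRNA.836, SPNCRNA.1687 and SPNCRNA.1626, with means of 49.97, 49.74 and 49.69 FPKM.

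Genes listed as factors that remove or limit non-coding transcripts changed little. The lists were matched to features by gene name alone, and the function of each matched gene was not checked. Of 44 measured genes matched by name to the RNA decay list, 42 were tested and none was called by limma, with log2 changes of -0.26 to 0.34. At an unadjusted p under 0.05, 4 were higher and 4 lower, where 14.5% and 11.5% of all features were. The smallest p-values belonged to dcp1 (decapping), not1 (deadenylation) and mtr3 (exosome), with log2 changes of 0.34, -0.25 and -0.19 and limma adjusted p of 0.072, 0.074 and 0.087. Of 36 genes matched by name to the chromatin and termination list, 2 were called higher and none lower (7 and 0 at an unadjusted p under 0.05), beside 4.07% called higher over all features. The remodeler fft3 averaged 121 FPKM with estradiol and 85.1 FPKM in control (log2 change 0.50, limma adjusted p 0.013). Dicer, dcr1, which cuts double-stranded RNA, averaged 28.5 FPKM with estradiol and 22.8 FPKM in control (log2 change 0.31, limma adjusted p 0.048). The median log2 changes of the lists were 0.05 and 0.03, beside 0.02 over all features tested.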

How the data were processed

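RNA of 3 estradiol and 3 control cultures was sequenced after removal of ribosomal RNA. The authors deposited 1 FPKM value for each feature and library. Per the submitters' processing notes, the tools included CASAVA 1.4, TopHat2 and Cuffdiff, whose settings are not stated; the build is not given in the sources used here. Since FPKM scales each library by its total, an abundant feature shifts all others.

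Column names gave the group of each library but no link to the labels' replicate numbers. Deviations from the group means correlated at 0.152, 0.212 and 0.146 between libraries of the same column number. Between libraries of unlike number they correlated at -0.149 to -0.0112. Taking deviations from group means ties these values to each other. The number served as a replicate block in an alternative.

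Of 7016 features, 6166 with a mean of at least 1 FPKM were tested on log2(FPKM + 1) by limma 3.58.1 in R 4.3.3 (trend over intensity, 2-sided), with Benjamini-Hochberg adjustment over all of them. A call is an adjusted p under 0.05. Changes are on this scale, which understates those of low features. On simulated data for this comparison (6166 genes, 200 changed), it recovered 74.5% at 1.5-fold, 91.5% at 2-fold and 99.0% at 4-fold.

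Members, lists and the rule for named genes were chosen with earlier results of these data known. Named are all called members, the 10 highest, those with a reference name, those at the threshold and their overlapping genes; other genes were named after their values were seen. Names, places and sequence came from ASM294v3 (RefSeq), to which 6861 identifiers matched and 155 did not. The alternatives were other pseudocounts, filters, scalings, fits, thresholds of membership (50 FPKM in each group was added after the data were seen) and each library left out. Python 3.11.15, pandas 2.3.3, Biopython 1.88 and matplotlib 3.10.9 were used.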

Additional observations from a re-analysis of the deposited data

How the results depend on the processing

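Of the 18 calls, 6 held without any one library (SPNCRNA.1072, SPNCRNA.1436, SPNCRNA.1696, SPNCRNA.568, SPNCRNA.906 and SPNCRNA.942). Of these, SPNCRNA.1436 and SPNCRNA.1696 passed 50 FPKM through estradiol alone, so they had to differ between the groups. Leaving out 1 library gave 4 to 12 higher calls, 2 to 6 lower calls and a median log2 change of 0.00686 to 0.0326. With the replicate block, the lower calls were 12 and included all 7, and the higher calls 16, and all 18 calls were kept. Calls over all features moved too, to 42 to 242 higher and 32 to 206 lower without 1 library. With the block they were 506 higher and 524 lower. Lower calls were 4 with no filter, 3 with quantile normalization, 0 at 2-fold, 11 for features of at least 25 FPKM and 0 among members that overlap no other gene. Higher calls were 5 at 2-fold and 20 for features of at least 25 FPKM. The median was 0.025 with quantile normalization, -0.022 with equal medians, 0.041 for features of at least 25 FPKM and 0.669 for those that overlap no other gene. The cause was not tested, except that a 2-fold minimum and other membership rules count fewer or other features by construction. Among the named features, signs turned only in uncalled ones. With equal medians, SPNCRNA.1376 had -0.028, SPNCRNA.1687 -0.016, SPNCRNA.507 -0.021, SPNCRNA.53 -0.016 and SPNCRNA.719 -0.022. With quantile normalization, SPNCRNA.1687 had -0.0056, SPNCRNA.510 0.191, SPNCRNA.719 -0.014, SPNCRNA.82 0.281 and SPNCRNA.92 0.257. Without 1 library, ranges were -0.081 to 0.079 for SPNCRNA.1376, -0.064 to 0.056 for SPNCRNA.1498, -0.318 to 0.743 for SPNCRNA.1626, -0.041 to 0.064 for SPNCRNA.1687, -0.171 to 0.163 for SPNCRNA.507, -0.238 to 0.385 for SPNCRNA.510, -0.025 to 0.069 for SPNCRNA.53, -0.021 to 0.055 for SPNCRNA.719, -0.071 to 0.0034 for SPNCRNA.82, -0.041 to 0.064 for SPNCRNA.836 and -0.158 to 0.038 for SPNCRNA.92. The unknown depth means that no counting interval can be set on any value, and with 3 libraries a group, an exact test of 1 value cannot pass 0.05.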
